A study of Mus musculus with 3 samples.

Results

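Cluster 1 is the group of growth hormone cells (somatotropes) that cells of all genotypes of this mouse pituitary series share, and its members are the cells that the authors' table gives the cluster number 1. It held 4538 of the 37474 cells: 1635 of 11222 in WT, 1715 of 12839 in HT and 1188 of 13413 in KO. The series profiled single cells of pituitaries of TpitWT, TpitHT and TpitKO mice, written WT, HT and KO here, with 1 library of each. The Tbx19 gene encodes Tpit, a transcription factor without which corticotropes and melanotropes do not make the hormone precursor POMC. Whole glands had been freshly dissected and dissociated with trypsin, cells taking up propidium iodide had been sorted away, and the rest had been run on 10x Chromium 3′ v3 reagents. The labels do not spell out HT, say how the allele was made, or give the age, the sex or the number of mice behind a library. No treatment is named, so the groups differ only in genotype as far as the labels go. A genotype and its library cannot be told apart, so no difference was tested, and every interval below is at 95% and covers counting error only.

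Somatotropes make growth hormone, store it in granules and release it when the hypothalamic hormone GHRH binds its receptor and raises cAMP, while somatostatin holds release back. Growth hormone acts largely through IGF1, which is made in the liver and elsewhere and feeds back on the pituitary. Corticotropes release ACTH, which drives the adrenal gland to make glucocorticoids, and somatotropes carry the glucocorticoid receptor. A mouse without Tpit is known to lack most ACTH and therefore to be short of glucocorticoids.

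The label of the cluster was checked against 4 somatotrope markers. Gh, which encodes growth hormone, took 68.0% of all counts of cluster 1 in WT, 68.4% in HT and 62.7% in KO. Ghrhr, the receptor of GHRH, was at 211, 197 and 81.0 CPM in WT, HT and KO. CPM is a gene's count scaled to the total count of the same genotype and cluster, with 7 pituitary hormone genes left out of that total. Pappa2, which cuts IGF binding proteins and so releases IGF, was at 228, 180 and 80.7 CPM. Ceacam10, a cell surface protein of the carcinoembryonic antigen family, had levels of 119.5 CPM (WT) and 72.4 CPM (HT), while the KO cells of cluster 1 had no count of it. All of the 4 markers were thus found in WT and HT cells of cluster 1, and 3 in KO cells. Pou1f1, the transcription factor that somatotropes share with lactotropes and thyrotropes, was at 578, 493 and 485 CPM.

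Markers of other cell types were read against cluster 9, whose cells carried the endothelial marker list at 25.4, 38.8 and 32.5 summed counts per cell in WT, HT and KO and should make no pituitary hormone. In cluster 1 the same 7 endothelial markers summed to 0.0153, 0.0239 and 0.0303 counts per cell, and Kdr was at 0 in HT and KO. The macrophage list of 8 genes summed to between 0.0309 and 0.0614 counts per cell, and the stem cell list of 8 to between 0.113 and 0.156. The fibroblast list of 7 summed to 0.476, 0.494 and 0.627 in WT, HT and KO, above its 0.227, 0.0854 and 0.0996 in cluster 9. Nearly all of the sum in cluster 1 was Col1a2, while the fibroblast marker Pdgfra was at 0 there in all libraries. Markers of other hormone lineages were also present. In all 3 libraries, 7 of 25 (Cga, Dio2, Oacyl, Prlr, Spp1, Tgfbr3l and Tshb) had more counts per cell in cluster 1 than in cluster 9. By share of cells with a count, 4 of the 25 stood above cluster 9. The like share over all genes is not given here, so these numbers only describe the markers. Cga, which encodes the alpha subunit of the glycoprotein hormones, was at 8.42, 9.62 and 18.1 counts per cell in cluster 1 and at 6.97, 7.72 and 14.9 in cluster 9. Pomc was at 4.74, 6.39 and 0.0875 counts per cell, against 11.6, 5.62 and 0.0453 in cluster 9. Prl, the prolactin gene, was at 40.4, 45.5 and 87.6, against 137, 42.2 and 103. Prl was thus lower in cluster 1 than in cluster 9 in WT and KO and higher in HT. Pomc was lower in WT and higher in HT and KO, and Cga was higher in each library. How much of these transcripts came from the cells of cluster 1 was not tested.

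Tbx19 had 9 counts in cluster 1 of WT, 7 in HT and 0 in KO, below its own level in cluster 9 in WT and HT. The row LacZp of the deposited table had 0 counts in cluster 1 of all libraries. Neither gene therefore checks the genotype within these cells. Of the cells of cluster 1, 39 carried a barcode found in more than 1 library, and 4 barcodes were found in cluster 1 of more than 1 library.

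The first comparison concerned the share of the captured cells of each library that lay in cluster 1, which does not give the number of somatotropes in a gland. Cluster 1 made up 14.6% (13.9 to 15.2) of WT cells, 13.4% (12.8 to 13.96) of HT cells and 8.86% (8.38 to 9.35) of KO cells. The KO share was 0.608 (0.564 to 0.655) of the WT share, and the HT share was 0.917 (0.856 to 0.982) of it. KO had no cells in clusters 6 and 7, and leaving those clusters out of the total put the KO over WT ratio at 0.510 (0.473 to 0.550). Among the somatotropes alone, the cells of clusters 1, 2 and 5, the shares of cluster 1 in WT, HT and KO were 43.7%, 44.8% and 32.4%. On that base KO over WT was 0.743 (0.689 to 0.801), and HT over WT was 1.03 (0.957 to 1.098). The KO share was the lowest on each of these bases.

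The other somatotropes were not shared in this way. WT and HT had 2081 and 2092 of them in cluster 2 and only 28 and 24 in cluster 5, whereas KO had 17 in cluster 2 and 2457 in cluster 5. On the authors' 2-dimensional UMAP map, which places cells of like expression close together, the genotypes were also apart within cluster 1. Of the 15 nearest neighbours of a cell that lay in cluster 1, 90.3% were of the same genotype for KO cells, although KO cells were 26.2% of the cluster. The same value was 49.4% for WT cells, which were 36.0% of the cluster, and 52.7% for HT cells, which were 37.8%. WT and HT cells were thus intermixed, and the KO cells formed a strip of their own that ran towards cluster 5. With 1 library each, this arrangement cannot be told apart from a difference between libraries.

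**Figure D1:**
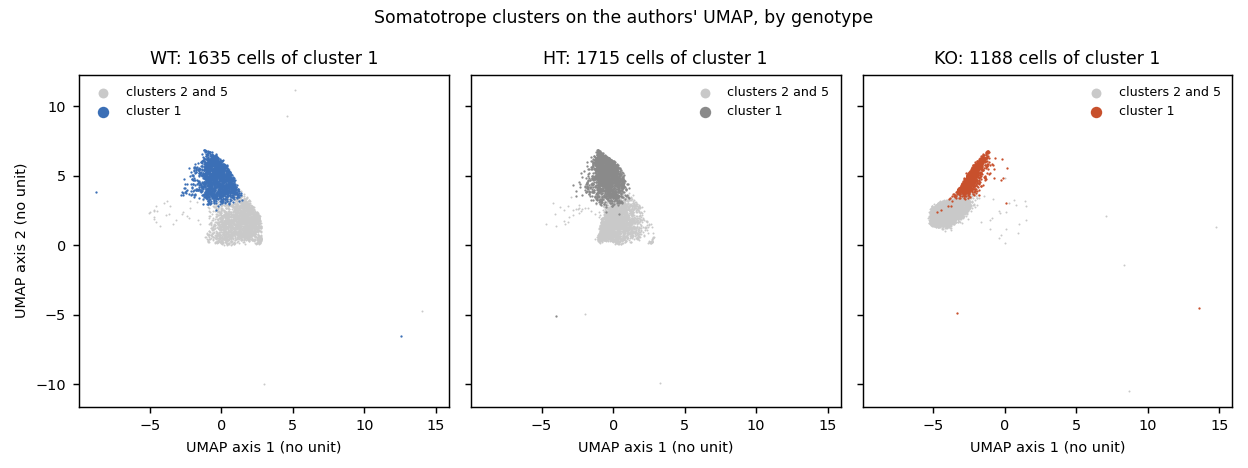
Position of each cell of cluster 1 (coloured) and of clusters 2 and 5 (light grey) on the 2 UMAP axes, which have no unit, with 1 panel per genotype. The 1635 WT and 1715 HT cells of cluster 1 cover the same area, and the 1188 KO cells lie in a narrow strip beside it.

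Cluster 1 was next set against the other somatotropes of the same library, cluster 2 for WT and HT and cluster 5 for KO. The authors formed the clusters from expression, so these differences describe the clusters and are not a test. Cells of cluster 1 gave fewer counts, at 8466, 10741 and 8196 per cell in WT, HT and KO against 14213, 17341 and 12859 in the other somatotropes. Most of the gap lay outside Gh. Gh counts per cell were 5760.3, 7350.4 and 5136 in cluster 1, which was 0.775, 0.819 and 0.867 of the other somatotropes. Counts of genes other than hormones were 2650.3, 3327 and 2952 per cell, 0.395, 0.401 and 0.431 of theirs. The number of genes with a count averaged 1197, 1353 and 1255 per cell in cluster 1, against 2580.1, 2839 and 2512. The mean of Gh counts per cell thus lay nearer to that of the other somatotropes than the mean of counts outside hormones did.

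Transcripts of the mitochondrial genome and the nuclear RNA Malat1 did not share in the low level. Mitochondrial genes took 5.59%, 5.40% and 5.69% of the counts outside hormones in WT, HT and KO, against 2.44%, 2.31% and 2.33% in the other somatotropes. Nuclear copies of mitochondrial genes took 9.16%, 9.16% and 9.59%, against 4.22%, 4.11% and 4.06%. These 7 copies are predicted genes picked because their share in cluster 1 followed that of the mitochondrial genes. Their higher share is thus no separate finding, and how reads were divided between them and the mitochondrial genome was not tested. Malat1, a long non-coding RNA kept in the nucleus, took 5.36%, 4.58% and 6.32%, against 2.51%, 2.09% and 2.79%. Per cell, mitochondrial counts were 0.905, 0.939 and 1.05 times and Malat1 counts 0.845, 0.877 and 0.978 times those of the other somatotropes. Ribosomal protein genes lay on the opposite side, at 7.61%, 9.62% and 7.81% of counts outside hormones against 13.6%, 15.6% and 15.4%. Such levels are often read as signs of RNA quality, and their part in the values of cluster 1 was not tested.

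**Figure D2:**
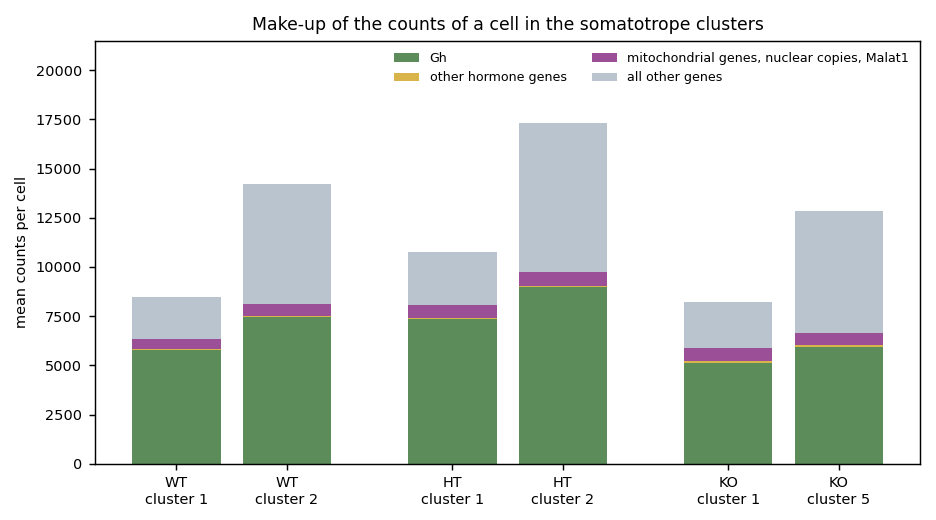
Mean counts per cell (bars start at 0) in cluster 1 and in the other main somatotrope cluster of each genotype, divided into Gh, the other hormone genes, mitochondrial genes with their nuclear copies and Malat1, and all other genes. Bars of cluster 1 reach 8466, 10741 and 8196 counts, and it is the block of all other genes that is small in them.

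Cluster 12, in which Prl took 42.5%, 47.5% and 49.96% of counts, shared the few genes per cell and the high mitochondrial and Malat1 shares. Its cells averaged 1248, 1221 and 1121 genes, with mitochondrial genes at 4.77%, 5.29% and 5.01% and Malat1 at 6.50%, 7.01% and 7.57% of counts outside hormones. Cluster 0, the largest Prl-rich cluster, averaged 2711, 2993 and 2624 genes per cell, with mitochondrial genes at 2.10%, 1.93% and 1.96%. Cluster 4, where Prl took 51.8%, 49.6% and 49.6% of counts, averaged 2293, 2524 and 2480 genes. A hormone cluster of few genes per cell beside one of many was thus found for both hormones. The hormone share differed, however. Against cluster 4, the Prl share of cluster 12 was lower in WT and HT and nearly equal in KO. Gh took 68.0%, 68.4% and 62.7% of counts in cluster 1, above its 52.3%, 51.8% and 46.1% in the other somatotropes.

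Gene by gene, a fold threshold of 2 was applied to CPM after adding 10 to both values, over the 13072 genes with at least 50 counts in each pair of columns. Cluster 1 was past 2-fold above the other somatotropes in WT, HT and KO in 16 genes, 0.122% of those considered, and past 2-fold below in 5, or 0.0382%. In single libraries the shares higher and lower were 0.177% and 0.244% in WT, 0.212% and 0.0354% in HT, and 0.246% and 0.898% in KO. The 16 were Malat1, mitochondrial genes and their nuclear copies, and the hormone genes Cga and Tshb. The copies were picked from these data as said above, so they add nothing separate to the mitochondrial genes. Among the mitochondrial genes, the ribosomal RNA mt-Rnr2 was at 13630.0 CPM in WT, 13894 CPM in HT and 12766 CPM in KO. No other gene passed in all libraries on the higher side. On the lower side stood the small nucleolar RNAs Snora65 and Snord4a, which lie within ribosomal protein genes, Camk2n1, an inhibitor of the calcium-dependent kinase CaMKII, and the predicted genes Gm3362 and Gm26202. Camk2n1 was at 109, 118 and 158 CPM in cluster 1 and at 245, 248 and 404 CPM in the other somatotropes. On plain counts per cell, the median gene stood at 0.364, 0.368 and 0.405 of its level in the other somatotropes. Ghrhr was at 131, 143 and 46.5 CPM in the other somatotropes and Ceacam10 at 63.4, 46.3 and 0.119 CPM, both below their CPM in cluster 1 except Ceacam10 in KO, where cluster 1 had no count. On counts per cell the direction turned. Ghrhr was at 0.558, 0.656 and 0.239 in cluster 1 against 0.879, 1.18 and 0.319 in the other somatotropes, and Ceacam10 at 0.317 and 0.241 in WT and HT against 0.425 and 0.384.

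The main comparison between genotypes asked how the somatotropes of cluster 1 differed without Tpit. Of 11259 genes considered, 44 were past 2-fold higher in KO than in WT, or 0.391%, and 103 were past 2-fold lower, or 0.915%. Against HT, 49 genes (0.418%) were higher and 88 (0.75%) lower of 11727. HT and WT were closer, with 11 genes higher in HT (0.0921%) and 7 lower (0.0586%) of 11949. The median gene stood at a log2 ratio of -0.0076 in KO over WT, and between WT and KO the mitochondrial share of counts outside hormones differed little, 5.59% against 5.69%, while that of Malat1 was 5.36% against 6.32%; the part of either in the differences was not tested. The 28 genes named next had at least 20 CPM, were past 2-fold against WT and stood on the same side of HT by a log2 ratio of at least 0.5.

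Gh itself took most of the counts in every library and stood lower in KO. Its share of counts in KO was 0.921 (0.920 to 0.922) of that in WT, and per cell its counts were 0.892 of WT. Ghrhr in WT was 2.60-fold (2.27 to 2.98) the KO level, and in HT 2.43-fold (2.14 to 2.78). Pappa2 in WT was 2.82-fold (2.47 to 3.23) the KO level. Of the receptors of somatostatin, Sstr2 was at 14.5, 5.08 and 7.13 CPM, Sstr3 at 17.8, 21.0 and 11.1, and Sstr5 at 11.3, 9.11 and 4.56. These last 3 lay low in every library and none was past 2-fold in KO over WT. Of the 23 genes of the growth hormone axis list that were considered, 13 were higher and 10 lower in KO than in WT, a median log2 ratio of 0.02. Ghrhr was the only one past 2-fold. Of all genes, 48.8% were higher and 51.2% lower, with 0.915% past 2-fold lower, so the list stood near all genes.

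Ceacam10 lay at chromosome 7, 24777206 to 24784657, plus strand, on GRCm38. It had 518 counts in WT, 413 in HT and 0 in KO, which allows up to 0.856 CPM in KO. The WT level was at least 139.7-fold and the HT level at least 84.6-fold higher, with 3 counts as the limit for KO. Its promoter is printed because this gene had the lowest log2 ratio of KO over WT among the named genes, -3.70. It is the 250 bases before the first of the RefSeq starts of this gene (chr7:24776917-24777166, plus strand, GRCm38.p6), 5′ to 3′, with capitals for the half-site bound by the glucocorticoid receptor, TGTTCT or AGAACA on the other strand.
Ceacam10: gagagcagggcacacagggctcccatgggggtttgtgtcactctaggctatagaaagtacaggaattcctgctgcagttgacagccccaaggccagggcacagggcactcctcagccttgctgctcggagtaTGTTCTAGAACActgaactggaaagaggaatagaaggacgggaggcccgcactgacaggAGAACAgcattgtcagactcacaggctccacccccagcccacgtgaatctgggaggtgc
The half-sites begin 118, 112 and 59 bases before that start, and 155, 149 and 96 bases before the other RefSeq start, whose window is chr7:24776954-24777203; the first 2 abut. TGTTCT or AGAACA was found in 5284 of all 32851 promoter windows of this length, or 16.08%, so a match is common and only describes the sequence. Ghrhr and Gh had no promoter in the table used.

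The other named genes lower in KO included a peptide precursor and receptors. Penk, the precursor of the enkephalin opioid peptides (chromosome 4, 4133531 to 4138819, minus strand), stood at 84.5 CPM in WT, 66.6 CPM in HT and 3.14 CPM in KO. WT was 26.9-fold KO (14.9 to 54.4), on 366 counts against 11. Ntrk3, the receptor of neurotrophin 3 (chromosome 7, 78175959 to 78738012), was at 57.2 and 35.4 CPM and had 3 counts in KO, a ratio of WT to KO of 66.9 (22.6 to 327). Alcam, an adhesion molecule of the immunoglobulin family (chromosome 16, 52248996 to 52454074), was at 238, 177 and 33.7 CPM, 7.08-fold (5.85 to 8.64). Il6ra, the receptor of interleukin 6, was at 55.6, 37.9 and 4.56 CPM, 12.2-fold (7.35 to 21.7). In these genes both WT and HT stood well above KO.

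Enzymes and other proteins were also among the named genes lower in KO. Dnah9, a dynein heavy chain of cilia, was at 64.4, 43.3 and 5.13 CPM in WT, HT and KO. Ugt8a, which makes galactosylceramide, was at 47.3, 55.2 and 4.85 CPM, and Gnmt, a methyltransferase that regulates methyl groups in the liver, at 58.2, 38.9 and 9.13 CPM. Sec14l4, of a family of lipid carriers, was at 26.8 and 20.3 CPM and had 1 count in KO, a WT to KO ratio of 93.9 (16.5 to 3739). Cidea, a protein of lipid droplets, stood apart in HT as well, at 332 CPM in WT, 131 CPM in HT and 60.7 CPM in KO. Srxn1, which repairs oxidised peroxiredoxins, followed the same order at 170.3, 75.4 and 38.5 CPM. Ccn1, a secreted matrix protein that growth stimuli induce, was at 218, 238 and 40.8 CPM, 5.34-fold (4.48 to 6.41), and in cluster 9 at 278, 209 and 132 CPM. HT lay between WT and KO for Dnah9, Gnmt and Sec14l4 as well as for Cidea and Srxn1. In Cidea and Srxn1 it was 2.53-fold (2.31 to 2.77) and 2.26-fold (2.00 to 2.55) below WT.

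B2m, the light chain that all class I MHC molecules share (chromosome 2, 122147686 to 122153083), was at 521, 457 and 132 CPM. The WT level was 3.93-fold (3.56 to 4.36) that of KO. The heavy chains H2-K1, at 121, 114 and 138 CPM, and H2-D1, at 451, 439.9 and 512 CPM, stood slightly higher in KO. Of the 12 genes of the MHC class I list that were considered, 10 were higher in KO and 2 lower (median 0.18), beside 48.8% of all genes higher. In cluster 9, B2m stood at 2387, 2592 and 2795 CPM in WT, HT and KO, so a low B2m level in KO was not found in those cells.

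On the higher side in KO, the named gene with the highest log2 ratio was Igf1 (chromosome 10, 87858265 to 87937042, plus strand), which encodes insulin-like growth factor 1. Its CPM values were 4.15, 12.1 and 51.3 in WT, HT and KO, on 18, 69 and 180 counts, and KO was 12.4-fold WT (7.60 to 21.3). The 3 libraries were in the order WT, HT, KO. In cluster 9 Igf1 was at 0.0145, 0.121 and 0.462 counts per cell, above its 0.0110, 0.0402 and 0.152 in cluster 1, while in cluster 0 it was at 0.395, 0.302 and 0.747 CPM. How much of the Igf1 in cluster 1 is background of the suspension was not tested. Of the 9 genes of the IGF list that were considered, Igf1 included, 3 were higher and 6 lower in KO. Of all genes, 48.8% were higher and 51.2% lower. Within the list, Igf1 and Pappa2 were past 2-fold in opposite directions. Igf1r, the IGF1 receptor, was at 200.1, 181 and 184 CPM.

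The other named genes higher in KO had a range of known roles. Calb1, the calcium buffer calbindin (chromosome 4, 15881264 to 15908064), was at 16.6, 29.1 and 96.1 CPM in WT, HT and KO, and KO was 5.78-fold WT (4.47 to 7.57). Sphkap, which anchors the cAMP-dependent kinase (chromosome 1, 83254139 to 83408200), was at 52.4, 54.5 and 191 CPM, 3.65-fold (3.14 to 4.27). Lsamp, an adhesion protein of the limbic system, was at 11.3, 11.6 and 68.2 CPM, and Ncam2, a neural cell adhesion molecule, at 39.2, 39.4 and 121 CPM. In Sphkap, Lsamp and Ncam2 the HT level was next to that of WT. Upp1, a uridine phosphorylase, was at 2.31, 2.28 and 34.2 CPM, 14.8-fold (7.79 to 31.7) on 10 counts in WT and 120 (34.2 CPM) in KO. Cpne4, Ush1c, Dnah8, Epha7, Adarb2, Me3 and Lhfpl2 were also named by the rule, with KO levels between 25.1 and 46.5 CPM and WT levels between 2.54 and 11.3 CPM. With Gh and the other hormone genes kept in the total, Cpne4, Epha7, Adarb2, Me3 and Lhfpl2, and Sec14l4 among the lower genes, were within 2-fold. Ntrk3, Il6ra, Sphkap, Ncam2, Dnah8, Adarb2 and, among the genes described next, Nnat, Mt2, Fkbp5 and Manf overlap other counted genes, and whether the counting used strand is not given in the sources used here, so reads of both genes may be mixed.

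**Figure D3:**
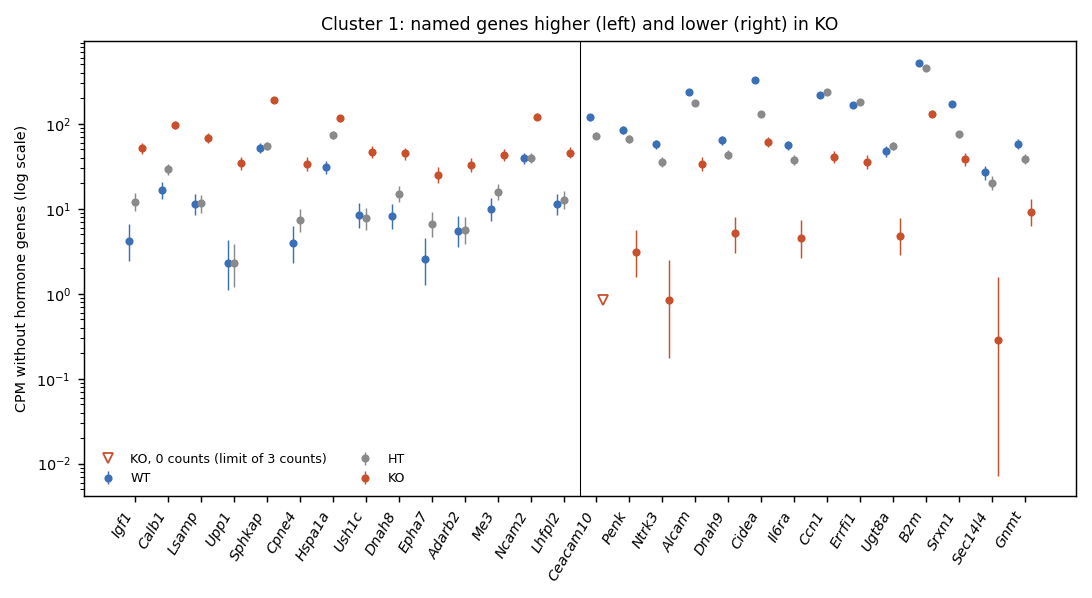
CPM without hormone genes (log scale) of the 14 higher and 14 lower named genes in cluster 1, with 1 point per library and 95% Poisson intervals of the counts; the open triangle is the limit of 3 counts for Ceacam10, which had 0 in KO. The HT point lies between those of WT and KO for many of these genes, among them Igf1, Calb1, Penk, Alcam, B2m, Cidea and Srxn1.

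The glucocorticoid list was examined because a mouse without Tpit is known to lack most ACTH. Like the other lists, it was chosen with earlier results of these data known, so the counts below only describe it. It holds 21 genes that glucocorticoids are known to induce in many tissues, and 17 were considered. In KO over WT, 14 were lower and 3 higher, with a median log2 ratio of -0.27, beside 51.2% of all genes lower. Past 2-fold lower were 4 of the 17, against 0.915% of all genes. Errfi1, which restrains the EGF receptor, was at 167, 182 and 35.6 CPM in WT, HT and KO, and WT was 4.69-fold KO (3.87 to 5.71). Fkbp5, a chaperone partner of the glucocorticoid receptor, was at 129, 130.03 and 32.5 CPM, 3.97-fold (3.24 to 4.90). Cdkn1a, the cell cycle inhibitor p21, was at 34.8, 46.8 and 3.71 CPM, 9.40-fold (5.33 to 18.1). Mt2, a metallothionein that binds zinc and copper, was at 191, 195 and 59.3 CPM, 3.22-fold (2.76 to 3.76). In each of these 4 genes the HT value was above that of WT, though only by little in Fkbp5 and Mt2. The receptor itself, Nr3c1, was at 103, 99.2 and 119 CPM.

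The HT library stood on the opposite side of WT for this list. Of 18 genes considered, 15 were higher in HT than in WT (median 0.22), with none past 2-fold, beside 46.8% of all genes higher and 53.2% lower. Tsc22d3, which encodes the glucocorticoid-induced leucine zipper GILZ, was at 54.9, 83.8 and 43.9 CPM, and Pdk4, a kinase that limits glucose oxidation, at 19.2, 32.2 and 14.3. Against HT, 15 of 18 were lower in KO (median -0.80), 6 of them past 2-fold, beside 48.8% of all genes lower and 0.75% past 2-fold lower. The comparisons share libraries and are given side by side. Members that went the other way in KO over WT were Dusp1, a phosphatase of MAP kinases, at 312, 302 and 508 CPM, the clock gene Per1 at 31.2, 27.0 and 43.9, and the kinase Sgk1 at 4.15, 7.54 and 10.8. Dusp1 and Per1 also answer to other stimuli as immediate early genes. Among the early and heat shock list, which cell handling is known to induce, 14 of 20 were higher in KO than in WT (median 0.05). Of these, 2 were past 2-fold higher, beside 48.8% of all genes higher and 0.391% past 2-fold higher. The part of such genes in the values of the glucocorticoid list was not tested.

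Promoters of the list were searched for the glucocorticoid response element, spelled GNACA and TGTNC with 3 bases of any kind between them, which reads alike on both strands, in the 250 bases before each RefSeq start. Of the 21 genes, 18 had a window, 29 windows in all because some genes have several starts, and 2 of the 29 held a match, 1 of Mt1 and 1 of Sgk1. All windows together held it in 127 of 32851, or 0.387%. Errfi1, Fkbp5, Cdkn1a and Mt2, the members past 2-fold lower in KO, held no match. Of the genes with a match, Mt1 was lower in KO and Sgk1 higher, so the matches only describe the sequences. The neighbours Mt1 and Mt2 are shown because Mt2 was past 2-fold lower in KO while Mt1, at 1589.8, 1708 and 911 CPM, was 1.75-fold (1.67 to 1.82) lower. Both are on the plus strand of chromosome 8, chr8:94178839-94179088 for Mt1 and chr8:94172368-94172617 for Mt2, 5′ to 3′ on GRCm38.p6, with capitals for the match.
Mt1: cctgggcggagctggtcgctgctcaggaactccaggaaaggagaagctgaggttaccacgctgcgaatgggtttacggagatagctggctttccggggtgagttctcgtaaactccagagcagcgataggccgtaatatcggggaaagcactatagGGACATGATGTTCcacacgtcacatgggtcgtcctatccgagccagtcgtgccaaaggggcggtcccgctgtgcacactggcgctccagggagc
Mt2: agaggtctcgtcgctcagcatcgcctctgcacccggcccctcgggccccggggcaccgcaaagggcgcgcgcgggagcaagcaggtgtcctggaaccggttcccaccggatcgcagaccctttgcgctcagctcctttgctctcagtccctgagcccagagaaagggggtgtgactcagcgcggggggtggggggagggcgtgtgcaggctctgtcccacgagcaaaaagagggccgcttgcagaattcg
The match of Mt1 begins 94 bases before the start. Mt2 held neither these letters nor the half-site in its window, which says nothing of elements elsewhere. Glucocorticoid response elements can act from far outside a promoter.

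Genes of secretion and of protein folding were each held in a list. In the secretory granule list, 20 of the 24 genes considered were higher in KO and 4 lower (median 0.17), beside 48.8% of all genes higher. Scg2, secretogranin II, was at 794, 709 and 1206 CPM, 1.52-fold (1.45 to 1.59) higher in KO. Ptprn, a membrane protein of granules, was at 260.1, 265 and 451 CPM, and Sytl4, which docks granules at the membrane, at 203, 271 and 351 CPM. None of the 20 was past 2-fold. Vgf, a granule protein cut into several peptides, stood at 46.4, 14.5 and 11.7 CPM in WT, HT and KO and was the only member past 2-fold lower. In the unfolded protein response list, 19 of 21 were lower in KO (median -0.26) and 20 of 21 were lower in HT (median -0.25), none past 2-fold, beside 51.2% and 53.2% of all genes lower. Hspa5, the chaperone BiP, was at 1906, 1572 and 1525 CPM. Creld2, a chaperone that follows endoplasmic reticulum stress, was at 114, 87.6 and 59.0 CPM, and Manf, which is secreted under the same stress, at 1425, 1199.9 and 1016 CPM. With all counts, Gh included, in the total, the median of all genes in KO over WT was 0.09, that of the unfolded protein response list -0.06 and that of the glucocorticoid list -0.08.

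In the other lists, beside 51.2% of all genes lower, 48.8% higher and 0.915% past 2-fold lower, counts were as follows. In KO over WT the median was 0.05 for the cAMP pathway (15 of 23 higher, Sphkap past 2-fold), 0.07 for ion channels (12 of 21), 0.05 for cholesterol synthesis (12 of 19), 0.03 for the circadian clock (8 of 16) and 0.01 for imprinted genes (11 of 20). Nnat, an imprinted gene of the endoplasmic reticulum (chromosome 2, 157560078 to 157562522), was the exception among the imprinted genes at 7008, 5753 and 2289 CPM. WT was 3.06-fold KO (2.99 to 3.14), on 30367 counts against 8028. In the antioxidant list 16 of 19 were lower in KO (median -0.08), and Srxn1 alone was past 2-fold. Gpx3, a secreted glutathione peroxidase, was at 297, 280.4 and 216 CPM. The cell adhesion list had 7 of 11 higher (median 0.20), with Ncam2 past 2-fold above and Ceacam10 and Alcam past 2-fold below. The list of cell cycle inhibitors had 8 of 12 lower (median -0.17), with Cdkn1a past 2-fold. None of the 19 genes of the G2M list had enough counts to be considered. Of the neuropeptide list 2 genes were considered, Penk and Gal, and both were lower in KO.

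**Figure D4:**
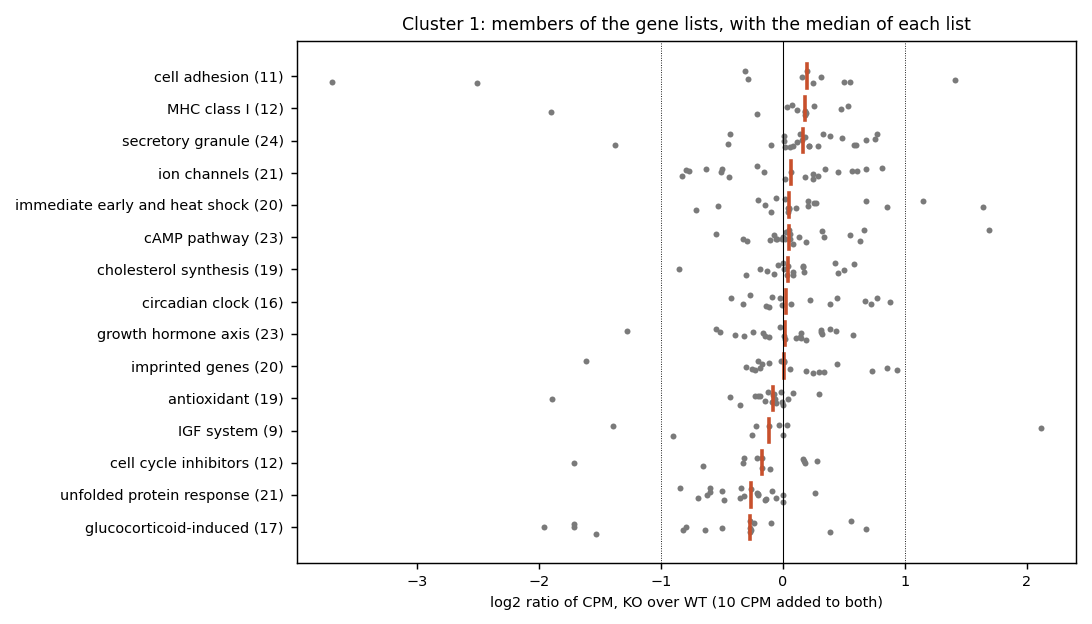
Log2 ratio of CPM in KO over WT (10 CPM added to both) of each considered gene in 15 lists in cluster 1, with 1 grey point per gene, a bar at the median of each list and dotted lines at 2-fold. The glucocorticoid-induced and unfolded protein response lists have the lowest medians, at -0.27 and -0.26, and 4 points of the former lie past 2-fold.

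Heat shock and immediate early genes react to tissue handling as well as to conditions in the animal. Hspa1a, an inducible HSP70 gene, stood at 30.7, 74.0 and 117 CPM in WT, HT and KO, and KO was 3.81-fold WT (3.13 to 4.67). Its near-identical neighbour Hspa1b, with which reads may be shared, was at 13.6, 28.6 and 42.5 CPM. In cluster 9 Hspa1a was at 209.7, 869 and 756 CPM and in cluster 0 at 161, 294 and 376 CPM, lowest in WT in both. Fos, a transcription factor of the early response, was at 3323, 3174 and 3424 CPM.

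HT against WT was named by size alone, 5 genes each way. Higher in HT were Hspa1a, given above, Cartpt, a neuropeptide precursor, at 5.31, 29.3 and 3.42 CPM in WT, HT and KO, and Trim5, a restriction factor against retroviruses, at 4.85, 27.3 and 23.7. Ddit4l, an inhibitor of mTOR signalling, was at 13.2, 40.3 and 23.1 CPM, and Sfi1, a centrosomal protein, at 44.3, 104 and 62.7. Cartpt was high in HT alone. Lower in HT were Cidea and Vgf, given above, and Mmp7, a matrix metalloprotease, at 31.4, 7.19 and 6.56 CPM. The pseudogenes Tmem181c-ps, at 52.4, 1.40 and 15.97 CPM, and Mid1-ps1, at 29.8, 8.59 and 15.4 CPM, completed the set. Tmem181c-ps was also low in cluster 0 of HT, at 25.1, 1.25 and 7.26 CPM, and Trim5 stood at 2.33, 11.2 and 9.87 CPM there. The counts of such pseudogenes and gene families are uncertain where near-identical copies share reads.

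Finally, the named genes were set beside the same contrast in the other somatotropes, KO cluster 5 over WT cluster 2, and in cluster 0. Cells of these clusters come from the same libraries, so likeness between them is not independent support. In KO cluster 5 over WT cluster 2, 41 of 14927 genes (0.275%) were past 2-fold higher and 119 (0.797%) lower. In cluster 0, 11 genes were past 2-fold each way of 15738, or 0.0699%. For Penk the log2 ratio was -2.85 in cluster 1, -2.60 in the other somatotropes and -1.14 in cluster 0. For Igf1 the values were 2.12, 1.96 and 0.05, for Errfi1 -1.96, -1.86 and 0.03, and for Nnat -1.61, -1.62 and -1.23. Alcam, at -2.51, -2.98 and -1.50, and B2m, at -1.90, -2.01 and -1.19, stood below 0 in each. The glucocorticoid-induced list had a median of -0.54 in KO cluster 5 over WT cluster 2 (14 of 18 lower), -0.11 in cluster 0 (11 of 16 lower) and -0.56 in cluster 9 (12 of 14 lower, 6 past 2-fold). Medians of all genes were -0.0098, -0.0056 and -0.017. A low median in cluster 9 was not particular to this list. The secretory granule list stood there at -0.83 (14 of 15 lower), the growth hormone axis at -0.72 (11 of 13) and imprinted genes at -0.54 (14 of 16, 6 past 2-fold). Some lists stood above 0 there, such as the circadian clock at 0.39 and MHC class I at 0.24. In cluster 9, 0.861% of all genes considered were past 2-fold higher in KO and 1.42% lower.

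**Figure D5:**
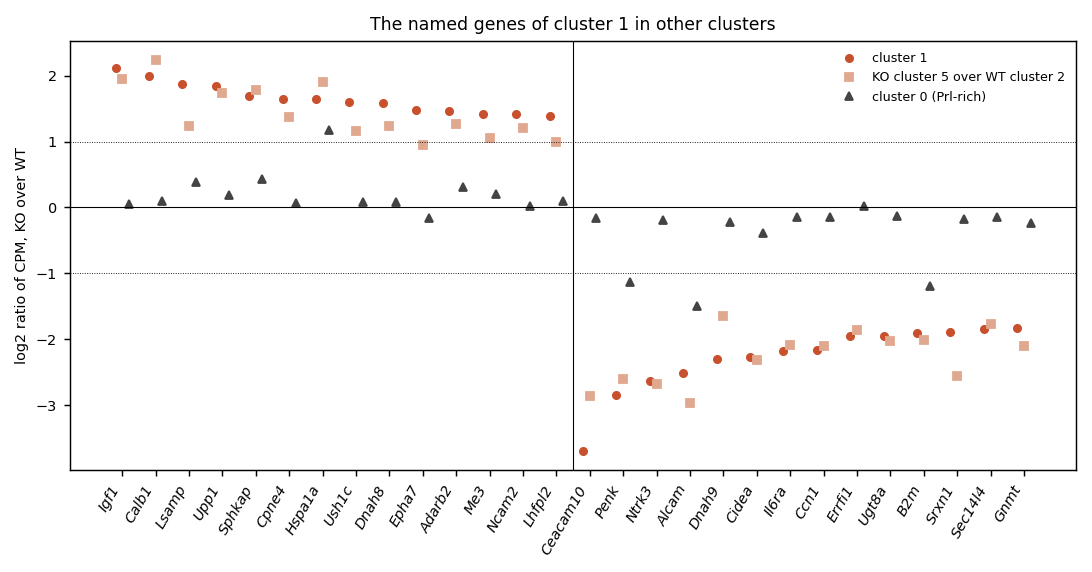
Log2 ratio of CPM in KO over WT (10 CPM added to both) of the 28 named genes in cluster 1 (circles), KO cluster 5 over WT cluster 2 (squares) and cluster 0 (triangles), with dotted lines at 2-fold. Triangles lie within 2-fold except for Hspa1a, Penk, Alcam and B2m.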

How the data were processed

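Members are the cells that the authors' table numbers 1. Per the submitters' processing notes, Cell Ranger 5, Seurat 3.1 and DESeq2 with no version were used, with the builds mm10 and GRCm38; which step used which is not given in the sources used here. The authors deposited counts, whole numbers with a sum for each gene, genotype and cluster (55403 rows, 61 columns), a table with the unit signal, the same sums as the authors' scaled counts, and other values, the cells with a count, UMAP positions and cluster numbers. Whether a count is a read or a molecule is not given in the sources used here. Counts per single cell were not analysed here, so doublets were not treated beyond the authors' steps and cells were not thinned.

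Rows of 1 symbol were added (55293 symbols). Libraries held 107289047 counts in WT, 152382545 in HT and 133252735 in KO, with 13842519, 18421107 and 9737132 in cluster 1. CPM left out Gh, Prl, Pomc, Cga, Lhb, Fshb and Tshb, and log2 ratios had 10 CPM added. Genes needed 50 counts in the compared columns together. Intervals are exact (Poisson, Clopper-Pearson, conditional binomial) at 95% and treat counts as independent, although they cluster in cells, so they are too narrow. Counts of 0 were given a limit of 3 counts.

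Named genes were the 14 highest and 14 lowest in KO over WT with at least 20 CPM, past 2-fold and at 0.5 or more on the same side of HT; the 5 highest and 5 lowest in HT over WT; those past 2-fold in cluster 1 against the other somatotropes in all libraries; markers, hormones and leading list members. Mitochondrial, ribosomal protein, hemoglobin, hormone and predicted genes were not ranked. Xist, Tsix and the Y-linked genes Ddx3y, Eif2s3y, Kdm5d and Uty were left out as well. Members, markers and the 17 lists were chosen with earlier results of these data known. Thresholding was tested on simulated counts. Promoters are RefSeq's on GRCm38.p6. Python 3.11.15, pandas 2.3.3 and scipy 1.17.1 were used.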

Additional observations from a re-analysis of the deposited data

How the results depend on the processing

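No paired analysis was possible because no genotype had more than 1 library, and for the same reason no replicate could be left out. The share of cells in cluster 1, KO over WT, was 0.510 outside clusters 6 and 7 and 0.743 within clusters 1, 2 and 5, where HT over WT was 1.03. Gh in KO over WT was 0.892 per cell, 0.810 with the authors' scaled counts and 0.782 with median-of-ratios size factors. With all counts, Gh included, in the total, 10 CPM weighs more: 17 genes were past 2-fold higher in KO and 26 lower, 4 higher in HT and 3 lower, and 1 higher and 337 lower in cluster 1 than in the other somatotropes; no list median then stood 0.2 below all genes (0 lists), and Cpne4, Epha7, Adarb2, Me3, Lhfpl2 and Sec14l4 were within 2-fold. With 1 CPM added in place of 10, the counts were 195 and 290 in KO, 52 and 77 in HT, and 37 and 16 in cluster 1. By share of cells with a count, 86 genes were higher in KO, and 4 markers of other hormone lineages in place of 7 stood above cluster 9. With the authors' scaled counts 11 genes were lower in HT, 78 higher and 0 lower in cluster 1, and the median of all genes moved to -0.13 in HT over WT. Size factors left 2 genes lower in cluster 1. Chosen after seeing the data, a total without mitochondrial genes, copies and Malat1 gave 36 higher and 0 lower in cluster 1, and mean counts per cell gave 0 higher and 3645 lower. The other 26 values that answer a comparison stayed within their interval or within 1.5 times the count; the cause of the shifts was not tested. Depth limits the genes near 10 CPM, and no test stands behind any value.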

Other observations

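Hemoglobin in cluster 1 of HT came from few cells. Hbb-bs had 5441 counts in 13 cells of HT, against 31 counts in 19 cells of WT and 51 in 38 of KO, and Hba-a1 had 2311 counts in 6 cells of HT against 17 in 11 and 17 in 15. The HT sums of these genes thus describe a handful of cells and not the cluster.

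Hormone transcripts of other lineages in cluster 1 also differed between libraries. Pomc took 0.0191 (0.0156 to 0.0231) times the WT share of counts in KO, and Prl 2.24 (2.22 to 2.26) times and Cga 2.22 (2.17 to 2.27) times. Tshb, the beta subunit of thyroid-stimulating hormone, was at 1.62, 1.31 and 1.99 counts per cell in WT, HT and KO.

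Prlr, the prolactin receptor, was at 246, 207 and 357 CPM in cluster 1 and at 0.653, 0.688 and 1.05 counts per cell, against 0.121, 0.0285 and 0.0598 in cluster 9. Mest, an imprinted gene of the hydrolase family, was at 184, 159.7 and 340.5 CPM, 1.85-fold (1.69 to 2.02) higher in KO, and Ndn, the imprinted gene of necdin, at 119, 126 and 203 CPM, 1.71-fold (1.53 to 1.92) higher. Creb1, the transcription factor that cAMP activates, was at 32.3, 34.9 and 51.9 CPM.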
